A study of Mus musculus with 22 samples.

Results

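*Gm44645*, *Gm44907*, *B230206I08Rik*, *4632427E13Rik* and *Gm45847* are 5 noncoding transcripts of mouse chromosome 7, out of 55406 genes counted in both tables of the series. They were taken as noncoding transcripts that differed in PWS-IC brains and lie 10 to 65 Mb from the Prader-Willi syndrome (PWS) interval. The interval is here the stretch between the lowest coordinate of *Snhg14* and the highest of *Peg12* (chr7:59307924-62464510, mm10). Because the PWS-IC contrast chose the 5 transcripts, their PWS-IC values are a description and carry no test. Their values in PWS-cr mice, and between the sexes of the PWS-cr series, were not used in the choice and are tested.

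Whole brains at postnatal day 0 were collected from PWS-IC mice (labelled HET PWS-ICdel) and their WT littermates, and from PWS-cr mice (labelled HET PWS-Cr) and their WT littermates. PWS-IC pups carry a deletion of the imprinting centre on the paternal chromosome, and PWS-cr pups a paternal deletion of the critical interval with the *Snord116* small nucleolar RNAs and most of *Ipw*. Both deletions are constitutive, carried by every cell of the brain, and the strain background of the sequenced pups is not given in the sources used here. The tables hold 4 PWS-IC and 5 WT libraries from 2 litters, with 45798407 to 62103143 counts in a library over both series. For the other series they hold 6 PWS-cr libraries from 4 litters and 5 WT libraries from 3 of these. The PWS-cr library 2_2_Cr has no littermate among them, so with litter in the model it does not inform the genotype comparison. The 2 series share the tissue and the age but no litter, and each has its own table.

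The PWS interval is imprinted. Most of its genes, *Snrpn*, *Ndn* and *Snhg14* among them, are transcribed from the paternal chromosome under the control of the imprinting centre. They are silent on the maternal chromosome. *Ube3a*, of the same imprinted region, is expressed from the maternal chromosome in neurons. The transcripts described here lie far outside the interval. *Gm44645*, *Gm44907* and *B230206I08Rik* belong to the annotation class TEC, single-exon models made from polyadenylated sequences and still to be experimentally checked. *4632427E13Rik* is a bidirectional promoter long noncoding RNA, meaning that it starts next to a gene transcribed the other way, and *Gm45847* is a long intergenic noncoding RNA. No function is given to any of them in the annotation, so they are ordered below by position, and the roles of the genes beside them are given as background.

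All positions are on mm10, the build of the count tables, from the GENCODE M21 annotation. *Gm44645* (chr7:73422250-73423902, + strand, 1653 bases, 1 exon) lies 10.96 Mb above the interval. It sits 2351 bases past the end of *Rgma*, which encodes a repulsive guidance molecule of growing axons, and 2736 bases from *Chd2*, which encodes a chromatin remodeller and runs on the opposite strand. *Gm44907* (chr7:90457252-90458884, + strand, 1633 bases, 1 exon) lies 28.0 Mb away and starts 23 bases from *Tmem126a*, a mitochondrial inner membrane protein gene on the opposite strand. *B230206I08Rik* (chr7:92408184-92411374, + strand, 3191 bases, 1 exon) lies 29.9 Mb away, inside *Dlg2* on the same strand, and shares 0 bases with its exons. *Dlg2* encodes the synaptic scaffold PSD-93. *4632427E13Rik* (chr7:92734166-92741468, - strand, 7303 bases) lies 30.3 Mb away and starts 135 bases from *Rab30*, a Golgi-associated small GTPase gene on the opposite strand. *Gm45847* (chr7:123031415-123068305, + strand, 4 exon blocks, 2062 exonic bases) lies 60.6 Mb away and shares 262 exonic bases with another noncoding gene of its strand, *Gm45846*. The libraries were unstranded, so reads from *Gm44907* and *Tmem126a*, or from *4632427E13Rik* and *Rab30*, near their touching ends could not be assigned by strand, and unspliced *Dlg2* RNA is counted in *B230206I08Rik*.

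Since only polyadenylated RNA was sequenced, the last 100 bases of 1 annotated transcript of each gene are shown (GENCODE M21 transcripts, GRCm38), 5′ to 3′ on the transcript's strand. It is the longest of 4 for *4632427E13Rik* (6559 bases), the longer of 2 for *Gm45847* (1880 bases) and the only one for the other 3. Capitals mark AATAAA or ATTAAA, the commonest polyadenylation signal hexamers, searched on the transcript's strand only; the hexamers do not overlap one another here.
Gm44645: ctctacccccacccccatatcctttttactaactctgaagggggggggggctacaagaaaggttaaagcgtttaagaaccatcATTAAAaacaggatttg
Gm44907: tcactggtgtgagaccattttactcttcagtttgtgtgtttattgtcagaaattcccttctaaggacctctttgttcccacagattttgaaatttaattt
B230206I08Rik: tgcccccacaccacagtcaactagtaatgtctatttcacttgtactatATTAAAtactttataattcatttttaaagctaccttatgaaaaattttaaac
4632427E13Rik: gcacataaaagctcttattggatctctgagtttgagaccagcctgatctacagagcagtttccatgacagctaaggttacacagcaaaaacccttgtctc
Gm45847: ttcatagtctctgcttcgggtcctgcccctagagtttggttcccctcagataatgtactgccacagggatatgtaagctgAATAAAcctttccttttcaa
*Gm44645* holds ATTAAA 11 bases before its end, *B230206I08Rik* ATTAAA 46 bases before its end, and *Gm45847* AATAAA 14 bases before its end, while neither hexamer is in this window of *Gm44907*, of any of the 4 *4632427E13Rik* transcripts or of the shorter *Gm45847* transcript. Of all annotated transcripts, 34.0% of TEC, 41.9% of long intergenic and 52.7% of protein-coding ones hold a hexamer in their last 100 bases. In the transcripts shown, the longest run of A is 36 bases in *Gm44645*, 16 in *B230206I08Rik*, 13 in *4632427E13Rik*, 6 in *Gm45847* and 5 in *Gm44907*. In the same transcripts G and C make up 49.0% of *Gm44645*, 46.1% of *Gm45847*, 41.9% of *Gm44907*, 38.9% of *4632427E13Rik* and 38.8% of *B230206I08Rik*.

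Only 1 of the 5, *4632427E13Rik*, matched the RefSeq promoter table (GRCm38.p6). Its promoter is shown because the neighbour *Rab30* also starts inside it, on the other strand (chr7:92741410-92741709, - strand, 300 bases, with the 50 transcribed bases in capitals).
4632427E13Rik promoter: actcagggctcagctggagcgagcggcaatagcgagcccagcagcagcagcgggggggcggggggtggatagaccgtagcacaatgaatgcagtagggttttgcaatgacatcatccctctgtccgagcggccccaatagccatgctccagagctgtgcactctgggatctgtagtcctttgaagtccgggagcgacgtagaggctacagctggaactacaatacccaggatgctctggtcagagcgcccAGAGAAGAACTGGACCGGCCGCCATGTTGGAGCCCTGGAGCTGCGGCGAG
The window is 60.7% G and C and holds 16 CG dinucleotides, a number reached by 33.0% of 32851 promoters of this length. Searched on both strands, GGGCGG (the core of an Sp1 site) was found in 1 place and CCAAT in 1 place, against 35.7% and 37.4% of all promoters with at least 1, and TATAAA in 0 places, against 13.6% of all promoters. The 2 matches do not overlap, and a match is a description of the letters only.

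The labels were checked before the comparisons. In the library labelled 1_3_IC (PWS-IC, female), the paternally expressed *Snrpn* and *Ndn* had 18116 and 41764 counts, while the other PWS-IC libraries had 255 to 425 and 846 to 898. It also had 64 counts of *Xist*, which is transcribed from the inactive X chromosome of females, and 3191 of the Y-linked *Eif2s3y*. The library labelled 1_7_IC (WT, male) had 343 and 677 counts of *Snrpn* and *Ndn*, with 124574 of *Xist* and 9 of *Eif2s3y*. Both go against their labelled genotype and sex, so the PWS-IC fold changes of the 5 transcripts are given for the 7 other libraries (3 PWS-IC, 4 WT) and for all 9 as labelled, and other PWS-IC values are of the 7 libraries unless the 9 are named. Labelled sex and genotype almost coincide among the 7, since all 3 PWS-IC pups are female and 3 of the 4 WT pups male. Neuronal genes (*Snap25*, *Tubb3*, *Stmn2*, *Map2*, *Gap43*) summed to 5337 to 6984 CPM (counts scaled to library size, by TMM) in every library, and the liver genes *Alb* and *Apoa2* to at most 0.990. Of the 7 marker lists examined beside the neuronal one, only the erythroid list (*Hba-a1*, *Hba-a2*, *Hbb-bt*, *Hbb-bs*, *Alas2*; 5 of 5 measured, none at 0) did not overlap between the 7 libraries: it summed to 437 to 671 CPM in PWS-IC and 136 to 326 in WT. The libraries labelled 1_3_IC and 1_7_IC had 390 and 1005. The part of blood RNA in the values below was not tested, and in whole tissue fewer cells of a type and less RNA per cell cannot be told apart.

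In the PWS-IC series, 4 of the 5 transcripts were higher in PWS-IC brains and 1, *4632427E13Rik*, was lower. *Gm44645*, the most abundant of them, was at 25.1, 39.9 and 43.0 CPM in the 3 PWS-IC libraries, against 12.0, 11.8, 12.7 and 14.7 CPM in the 4 WT libraries. Every PWS-IC library stood above every WT library, and the PWS-IC library of litter 1 was the lowest of the 3. The group means were 36.0 ± 9.55 CPM (SD, n = 3) in PWS-IC and 12.8 ± 1.33 CPM (SD, n = 4) in WT, and the log2 fold change, PWS-IC over WT with litter in the model, was 1.40 (SE 0.110). The library labelled 1_3_IC was at 12.4 CPM, within the WT range, and the library labelled 1_7_IC at 21.8 CPM, between the groups. With them included as labelled the log2 fold change was 0.90 (SE 0.314) and the groups overlapped.

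*B230206I08Rik*, the transcript inside *Dlg2*, had the largest log2 fold change of the 5 in the 7-library fit. Its levels were 7.27, 12.2 and 12.4 CPM in PWS-IC libraries, against 2.17, 2.13, 2.59 and 3.07 CPM in WT libraries. In counts these are 386, 646 and 791 against 126, 115, 155 and 157, so each value rests on more than 100 fragments. No WT library reached the lowest PWS-IC library, and the log2 fold change was 1.99 (SE 0.121). The library labelled 1_7_IC was at 8.65 CPM, inside the PWS-IC range, and the library labelled 1_3_IC at 0.667 CPM, below all other libraries of the series. As labelled, the 9 libraries gave a log2 fold change of 0.93 (SE 0.725). *Dlg2* itself was at 297 ± 5.67 CPM (SD, n = 3) in PWS-IC and 313 ± 28.2 CPM (SD, n = 4) in WT, with overlapping groups and a log2 fold change of -0.05 (-0.16 over the 9 libraries).

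*Gm44907*, beside *Tmem126a*, was the lowest of the 5 in WT brains of this series, also per base of transcript. Its counts were 139, 126 and 204 in PWS-IC libraries, against 33, 37, 62 and 52 in WT libraries, or 2.74 ± 0.424 CPM (SD, n = 3) and 0.827 ± 0.236 CPM (SD, n = 4). The groups did not overlap, and the log2 fold change was 1.69 (SE 0.189). The library labelled 1_3_IC, with 19 counts, lay below the WT range, and that labelled 1_7_IC, with 133 (2.17 CPM), just below the 2.38 CPM of the lowest PWS-IC library. Over the 9 libraries the log2 fold change was 0.89 (SE 0.532). *Tmem126a* was at 24.8 ± 2.57 CPM in PWS-IC and 23.8 ± 0.662 CPM in WT (SD, n = 3 and 4).

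*Gm45847*, the farthest from the interval, had 223, 249 and 182 counts in PWS-IC libraries, against 116, 89, 103 and 92 in WT libraries. The corresponding levels were 3.92 ± 0.955 CPM (SD, n = 3) and 1.79 ± 0.148 CPM (SD, n = 4), with a log2 fold change of 1.15 (SE 0.180), and no library overlapped. The libraries labelled 1_3_IC and 1_7_IC had 58 and 160 counts, below the WT range and between the groups. With both included the log2 fold change was 0.72 (SE 0.334). *Gm45846*, which shares exonic bases with it on the same strand, had only 4 to 11 counts in PWS-IC libraries and 5 to 8 in WT libraries, and *Tnrc6a*, the next gene above, whose product takes part in microRNA silencing, was at 186 ± 32.9 CPM in PWS-IC and 181 ± 12.8 CPM in WT (SD, n = 3 and 4).

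*4632427E13Rik* was the exception in direction and in how it followed the labels. It was at 4.39, 6.01 and 5.80 CPM in PWS-IC libraries, against 9.14, 10.2, 11.3 and 9.91 CPM in WT libraries, means of 5.40 ± 0.884 CPM (SD, n = 3) and 10.1 ± 0.899 CPM (SD, n = 4). The highest PWS-IC library was below the lowest WT library, and the log2 fold change was -0.95 (SE 0.111). The library labelled 1_3_IC was at 6.67 CPM and the library labelled 1_7_IC at 9.14 CPM, each on the side of its label although both have the *Snrpn* counts of the other genotype. Of the 5 transcripts, only its groups also stayed apart over the 9 libraries as labelled, as was so for 1.14% of all genes below WT and 1.14% above, and the log2 fold change was -0.81 (SE 0.134). *Rab30*, which starts 135 bases away, was at 61.5 ± 3.26 CPM in PWS-IC and 70.8 ± 6.35 CPM in WT (SD, n = 3 and 4), with overlapping groups, a log2 fold change of -0.20 (SE 0.0786) over the 7 libraries and -0.35 (SE 0.142) over the 9.

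**Figure D1:**
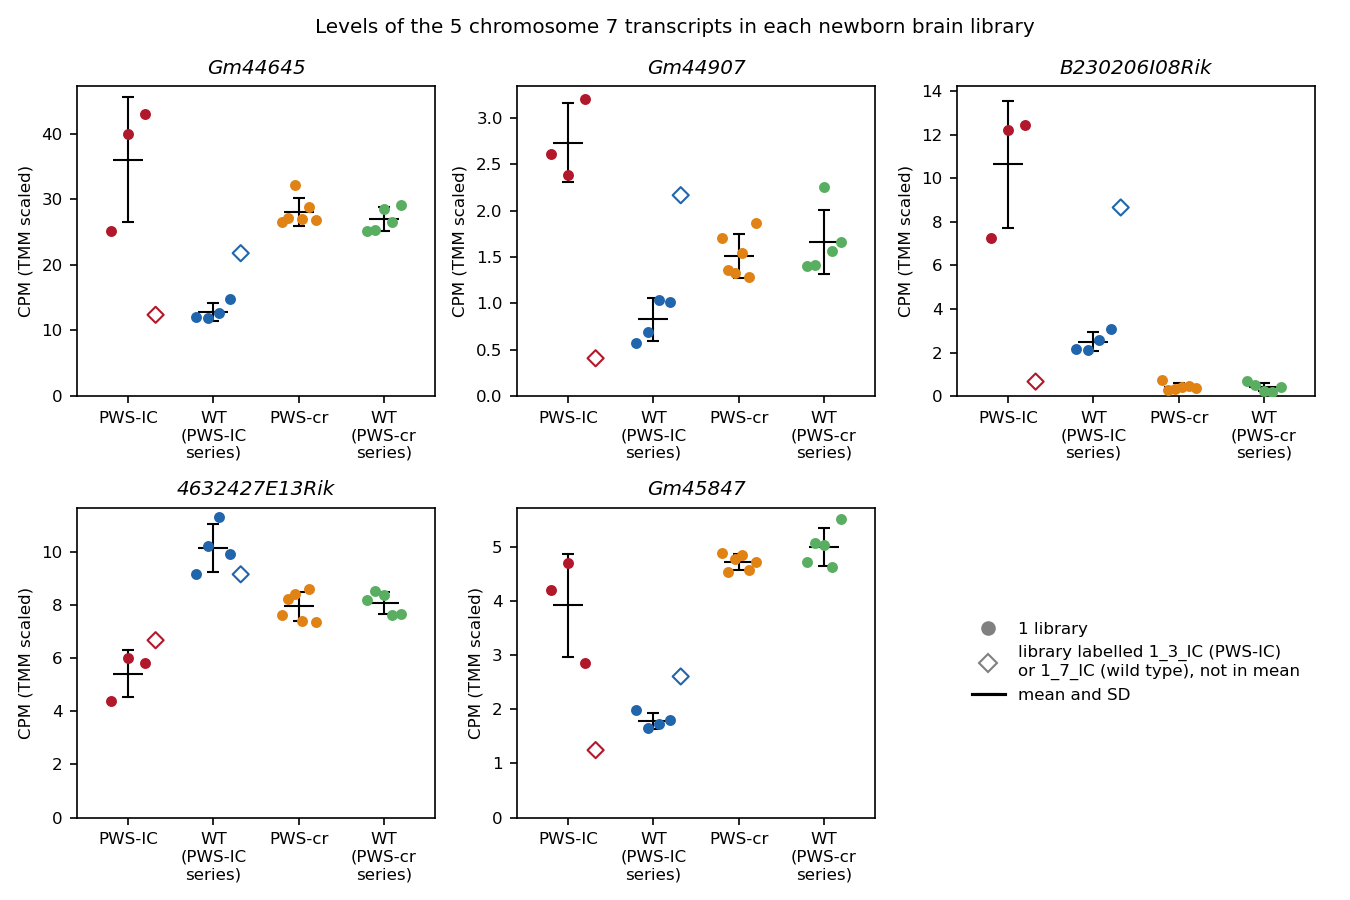
CPM of each transcript in each library (points), by genotype group, with the mean and SD of the filled points; open diamonds are the libraries labelled 1_3_IC and 1_7_IC, which go against their labels. The 3 filled PWS-IC points lie above the 4 filled WT points for all but 4632427E13Rik, where they lie below, while PWS-cr and its WT overlap in every panel.

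The PWS-IC fit over 7 libraries called 60 of 22523 genes at an adjusted p under 0.05 (0.266%), 0.107% as higher and 0.16% as lower. The groups did not overlap for 4.89% of all genes with PWS-IC above WT and 5.42% with PWS-IC below. Over the 9 libraries as labelled, edgeR called 0 of 22367 genes (0%) and DESeq2 called 1, with 8.23% at an unadjusted p under 0.05. The transcripts were chosen on this contrast, so nothing is read from how they compare with these shares. The median log2 fold change of the 5 was 1.40 over 7 libraries, beside 0.00 over all genes tested, and 0.89 over 9 libraries, beside 0.00.

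Because the groups did not overlap in the 7 libraries, their order had to be the same in both litters, so only the size of the ratios is described. Litter 4 holds neither of the doubted libraries. In litter 1, with 1 PWS-IC and 2 WT libraries of the 7, the ratio of PWS-IC to WT mean CPM was 2.11 for *Gm44645*, 4.17 for *Gm44907*, 3.38 for *B230206I08Rik*, 2.30 for *Gm45847* and 0.454 for *4632427E13Rik*. In litter 4, with 2 libraries of each genotype, these ratios were 3.02, 2.72, 4.35, 2.15 and 0.557 in the same order of genes. *Gm44645* and *B230206I08Rik* thus had the larger ratio in litter 4 and *Gm44907* in litter 1. The only WT female among the 7 had 698 counts of *Gm44645*, 33 of *Gm44907*, 126 of *B230206I08Rik* and 531 of *4632427E13Rik*, each below the lowest PWS-IC library for the first 3 and above the highest for the last. Its 116 counts of *Gm45847* were the highest of the 4 WT libraries and below the 182 of the lowest PWS-IC library. Since the groups do not overlap, this library had to lie on the WT side for each transcript. It cannot tell sex from genotype.

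In the PWS-cr series none of the 5 transcripts differed between genotypes by the test. The fit called 3 of 22172 genes (0.0135%) and 0 of the 5 transcripts, whose adjusted p was 1.00 each (edgeR quasi-likelihood test, Benjamini-Hochberg over all genes tested). Their smallest unadjusted p was 0.313, and 2.07% of all genes were under 0.05. *Gm44645* was at 26.5, 27.1, 32.1, 27.0, 28.8 and 26.9 CPM in the PWS-cr libraries, against 25.2, 25.3, 28.5, 26.5 and 29.2 CPM in the WT libraries. The ranges overlapped between 26.5 and 29.2 CPM, and the log2 fold change, PWS-cr over WT, was 0.08 (SE 0.0766). *4632427E13Rik* ran between 348 and 462 counts in PWS-cr (median CPM 7.92) and between 368 and 464 in WT (median CPM 8.20), with a log2 fold change of -0.01 (SE 0.0643). *Gm45847* had 223 to 260 counts in PWS-cr and 248 to 280 in WT, with a log2 fold change of -0.08 (SE 0.0859).

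The other 2 were measured less precisely in this series. *Gm44907* had 67 to 95 counts in PWS-cr and 75 to 125 in WT, a log2 fold change of -0.07 (SE 0.186). *B230206I08Rik* had only 13 to 33 counts in PWS-cr and 11 to 36 in WT, and its log2 fold change of -0.12 carried an SE of 0.362. Its SE was the widest of the 5, and at that depth even a sizeable difference of this transcript could have been missed. No transcript's groups stood apart, where 0.0812% of all genes did so with PWS-cr above WT and 0.0857% with PWS-cr below.

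Sex was tested in the PWS-cr series, where both genotypes hold both sexes, because it nearly coincides with genotype among the PWS-IC pups. With litter and genotype in the model, 7 of 22172 genes (0.0316%) and 0 of the 5 transcripts were called between male and female pups. The smallest unadjusted p of the 5 was 0.230 and their adjusted p was 1.00 each (edgeR). The log2 fold changes, male over female, were -0.05 for *Gm44645*, -0.21 for *Gm44907*, 0.17 for *B230206I08Rik*, -0.00 for *4632427E13Rik* and 0.01 for *Gm45847*. These libraries are of another colony than the PWS-IC pups. With sex added to the 7-library PWS-IC fit, which then rests on 1 WT female, the genotype log2 fold changes were 1.24 (SE 0.186) for *Gm44645*, 2.08 (SE 0.335) for *Gm44907*, 1.86 (SE 0.219) for *B230206I08Rik*, -0.91 (SE 0.183) for *4632427E13Rik* and 1.01 (SE 0.317) for *Gm45847*.

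**Figure D2:**
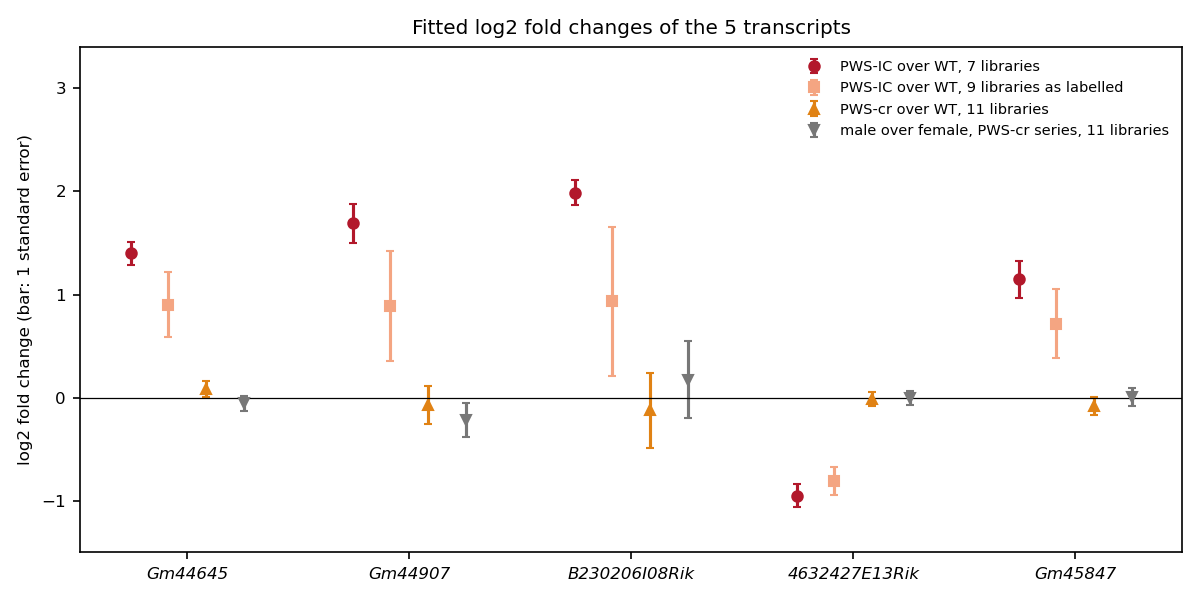
Fitted log2 fold change of each transcript (point) with 1 standard error (bar) for PWS-IC over WT in 7 and in 9 libraries, PWS-cr over WT, and male over female in the PWS-cr series. The PWS-IC values run between -0.95 and 1.99, the PWS-cr values between -0.12 and 0.08, and the 9-library bars are wider than the 7-library bars for every transcript.

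WT brains of the 2 series differed in all 5 transcripts. *B230206I08Rik* was at 2.49 ± 0.438 CPM in the 4 WT libraries of the PWS-IC series and 0.410 ± 0.194 CPM in the 5 WT libraries of the PWS-cr series, a ratio of 6.08, and *4632427E13Rik* at 10.1 ± 0.899 and 8.07 ± 0.406 CPM, a ratio of 1.26. *Gm44645* (ratio 0.476), *Gm44907* (0.498) and *Gm45847* (0.359) were lower in the WT libraries of the PWS-IC series, at 12.8 ± 1.33, 0.827 ± 0.236 and 1.79 ± 0.148 CPM there, against 26.9 ± 1.82, 1.66 ± 0.347 and 4.99 ± 0.350 CPM in the PWS-cr series. For each of the 5 the WT groups did not overlap, as was so for 18.4% of 21187 genes. With the library labelled 1_7_IC included, the WT groups of *Gm44907* overlapped and those of the other 4 did not. The tables were normalised apart, so no test was made, and colony, litter and library preparation cannot be told apart.

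Set against that second WT group, the PWS-IC libraries looked different from one transcript to the next. The mean of the 3 PWS-IC libraries was 26.0 times the WT mean of the PWS-cr series for *B230206I08Rik*, but 1.65 times for *Gm44907*, 1.34 times for *Gm44645*, 0.785 times for *Gm45847* and 0.669 times for *4632427E13Rik*. The *Gm45847* level in PWS-IC thus lay between those of the WT groups of the 2 series. For *Gm44645*, the litter 1 PWS-IC library, at 25.1 CPM, was just below the 25.2 CPM of the lowest WT library of the PWS-cr series. The library labelled 1_3_IC, at 0.667 CPM of *B230206I08Rik*, fell inside the 0.205 to 0.675 CPM of the PWS-cr series WT libraries.

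Per base of transcript, in the deposited FPKM (fragments scaled by gene length and library size), the order of the 5 also changed with the group. In PWS-IC it ran *Gm44645* (22.0 ± 6.39), *B230206I08Rik* (3.37 ± 1.01), *Gm45847* (1.91 ± 0.461), *Gm44907* (1.69 ± 0.283) and *4632427E13Rik* (0.746 ± 0.143; SD, n = 3), where the ranges of *B230206I08Rik* and *Gm45847*, and of *Gm45847* and *Gm44907*, overlapped. In WT of that series it ran *Gm44645* (7.80 ± 0.824), *4632427E13Rik* (1.40 ± 0.141), *Gm45847* (0.874 ± 0.0628), *B230206I08Rik* (0.785 ± 0.141) and *Gm44907* (0.510 ± 0.150; SD, n = 4), with *Gm45847* and *B230206I08Rik* within their spread. *4632427E13Rik*, the last of the PWS-IC order, was thus next to first in WT. With all 9 libraries as labelled the PWS-IC order was the same, and in WT *B230206I08Rik* (1.18 ± 0.889; SD, n = 5) came before *Gm45847* (0.956 ± 0.192). In PWS-cr, *Gm44645* (16.9 ± 1.24) led *Gm45847* (2.29 ± 0.0773), *4632427E13Rik* (1.08 ± 0.0688), *Gm44907* (0.926 ± 0.149) and *B230206I08Rik* (0.133 ± 0.0497; SD, n = 6), and its WT gave the same order, with *4632427E13Rik* and *Gm44907* within their spread in both.

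Along chromosome 7, calls in the 7-library fit gathered in the PWS interval. Of the 60 called genes 36 were on chromosome 7, 29 of them within 1 Mb of the interval, with log2 fold changes such as -5.27 for *Snrpn*. The remaining 7 were the 5 transcripts, the TEC gene *Gm45094*, 24.3 Mb away on the other side, and *Hbb-bt*, a beta globin gene 41.3 Mb away. Over the 9 libraries, where no gene was called, *Snrpn* had -1.88 (SE 1.60). *Gm45094*, with a log2 fold change of 1.05 (SE 0.177), passed the same call but was not among the chosen transcripts, and *Hbb-bt* (1.08, SE 0.174) is protein-coding and one of the erythroid markers. Next to the threshold, *Gm45847* (1.15, SE 0.180) was the member just inside, and *1810026B05Rik* (1.28, SE 0.237), in the window around *Gm44645*, the noncoding gene just outside.

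In bins of 10 Mb along the chromosome, outside the interval, 6.70% to 24.5% of the other tested genes had an unadjusted p under 0.05 in the 7-library fit, against 12.7% of all genes. The highest share was in the bin just below the interval (0 to 10 Mb), where none of the 5 lies. The bins with a member had 15.9% (10 to 20 Mb above, *Gm44645*), 22.4% (20 to 30 Mb, *Gm44907* and *B230206I08Rik*), 23.8% (30 to 40 Mb, *4632427E13Rik*) and 13.0% (60 to 70 Mb, *Gm45847*), and those between without a member 24.1% and 19.6%. The 4 bins with a member had, over the 9 libraries, 8.80%, 7.14%, 13.0% and 6.59%, against 8.23% of all genes. In the PWS-cr fit they had 2.44%, 4.94%, 0.870% and 1.14%, against 2.07%. The PWS-IC shares come from the contrast that chose the transcripts and are given without a test.

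**Figure D3:**
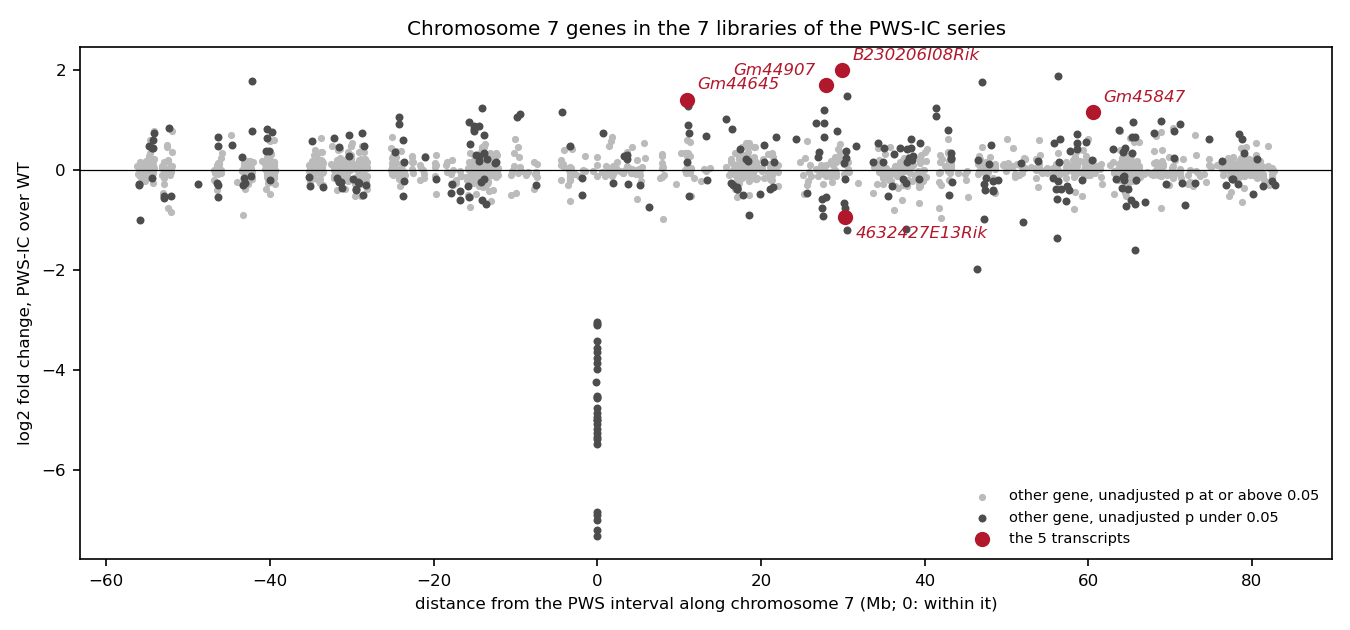
Log2 fold change (PWS-IC over WT, 7 libraries) of every tested chromosome 7 gene against its distance in Mb from the PWS interval; red points are the 5 transcripts, dark points other genes with an unadjusted p under 0.05. The genes at distance 0 reach far below 0, and the 5 transcripts lie 10.96 to 60.6 Mb above the interval, 4 of them above 0.

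The genes around the transcripts were examined over 1 Mb on each side. Of 106 neighbours tested in the 7-library fit, 0 had an adjusted p under 0.05 and 25 an unadjusted one (15 higher and 10 lower in PWS-IC), or 23.6% against 12.7% of all genes tested, and over the 9 libraries 12 of 105 did (11.4% against 8.23%). The windows of *B230206I08Rik* and *4632427E13Rik* share most of their genes, with 10 of 28 and 10 of 22 neighbours at an unadjusted p under 0.05. The counts were 8 of 29 around *Gm44907*, 5 of 21 around *Gm44645* and 2 of 29 around *Gm45847*. In the PWS-cr fit 0 of 97 neighbours had an unadjusted p under 0.05, where 2.07% of all genes did, and in the test of sex 5 of 97 (5.15% against 2.71%).

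Neighbours of other gene types, mostly noncoding, spread more widely than coding ones. The median size of the log2 fold change, sign ignored, was 0.26 over 65 neighbours of other types and 0.07 over 41 protein-coding neighbours. Of the other types 26.2% had an unadjusted p under 0.05, against 11.2% of all tested genes of other types, and of the coding neighbours 19.5%, against 13.3% of all coding genes. The median sizes were 0.26 and 0.14 over the 9 libraries. They were 0.12 and 0.05 in the PWS-cr genotype fit and 0.17 and 0.05 in the test of sex. The wider spread of other gene types was thus not particular to the PWS-IC contrast. Of the genes next to a transcript, *Rgma* had a log2 fold change of 0.06 and *Chd2* of 0.16, beside 1.40 for *Gm44645* between them. *Tmem126a* had 0.09 and *Tmem126b*, a gene of complex I assembly, -0.13, beside 1.69 for *Gm44907*. On either side of *Gm45847* (1.15), *Rbbp6*, a ubiquitin ligase gene and the nearest coding one, had 0.19 (SE 0.0632) and *Tnrc6a* had -0.01. *Rbbp6* was at 169 to 190 CPM in PWS-IC and 145 to 169 CPM in WT, its groups just apart and in the direction of *Gm45847*. *Chd2*, *Rab30* and *Rbbp6* were among the 8 coding neighbours with an unadjusted p under 0.05 (edgeR), each in the direction of the transcript beside it. The other coding neighbours under 0.05 went both ways. Around *4632427E13Rik*, itself lower, 3 were higher (*Pcf11* 0.14, *Ddias* 0.38, *Prcp* 0.23) and 1, *Rab30*, lower. These genes also lie within 1 Mb of *B230206I08Rik*, itself higher, so there *Pcf11*, *Ddias* and *Prcp* went with the transcript and *Rab30* against it. Around *Gm44907*, itself higher, 1 was higher and 1 lower. Over the 9 libraries *Rab30* had -0.35, *Rbbp6* 0.05, *Chd2* -0.12, *Rgma* 0.05, *Tmem126a* 0.19, *Tmem126b* 0.05 and *Tnrc6a* -0.18.

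Around *4632427E13Rik* genes of other types went both ways. Of its 14 tested neighbours of other types, 4 were lower and 2 higher at an unadjusted p under 0.05 (edgeR). Their median log2 fold change was 0.22. *Gm26981*, a long intergenic noncoding RNA 418 bases past its end on the opposite strand, was at 1.97 ± 0.591 CPM in PWS-IC and 3.18 ± 0.197 CPM in WT (SD, n = 3 and 4), a log2 fold change of -0.76 (SE 0.178), and -0.56 (SE 0.208) over the 9 libraries. *6430511E19Rik* and *Gm26944*, which overlap each other and *Pcf11* and so may share reads, had -0.90 (SE 0.202) and -0.67 (SE 0.170), and over the 9 libraries as labelled -1.26 and -0.79. On the same stretch *Gm26862* (1.48, SE 0.353; 0.79 over the 9 libraries) was higher in PWS-IC. Around *Gm44645*, *1810026B05Rik* and *Gm44686* (0.89, SE 0.235), 115 and 114 kb above it, were higher and *A830073O21Rik* (-0.53, SE 0.108) lower, with 0.85, 0.43 and -0.59 over the 9 libraries. Around *Gm44907*, the TEC genes *Gm45222* (1.20, SE 0.451) and *Gm45221* (0.93, SE 0.286) were higher and *Gm44860* (-0.93, SE 0.264) lower, with 0.75, 0.56 and -1.24 over the 9 libraries. None of these had an adjusted p under 0.05 in either fit, and apart from *Gm26981* they were picked after their values were seen.

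**Figure D4:**
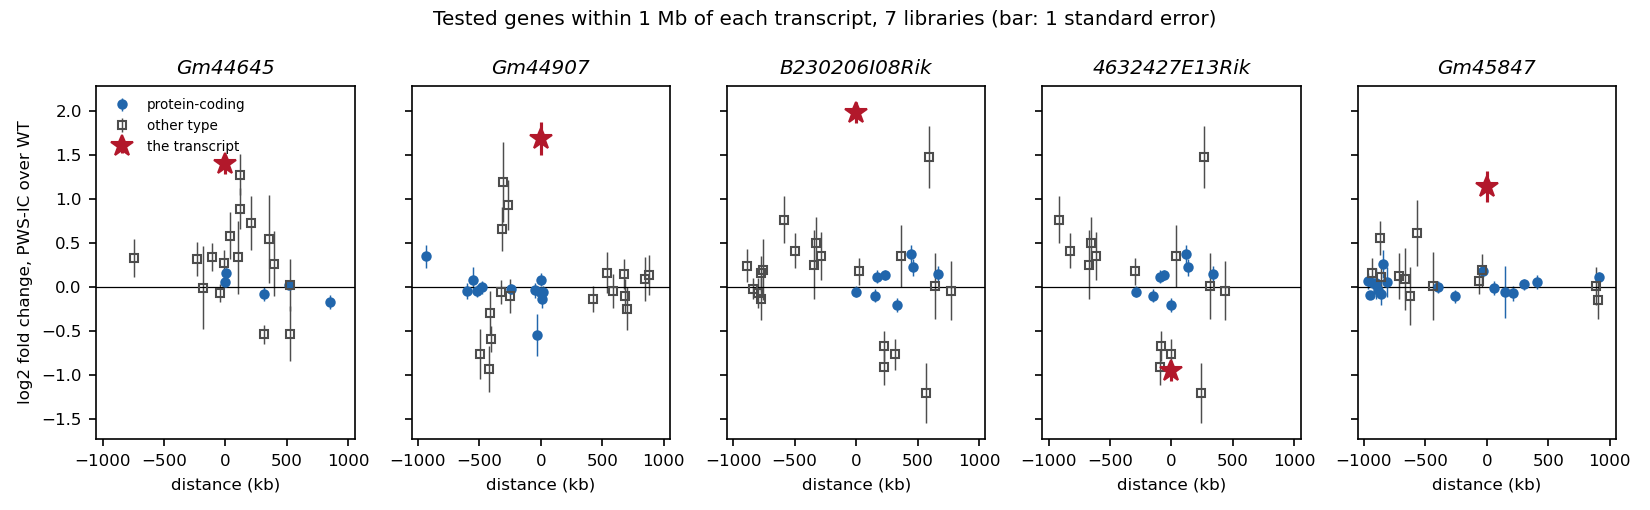
Log2 fold change (PWS-IC over WT, 7 libraries) with 1 standard error of the tested genes within 1 Mb of each transcript, against distance in kb; circles are protein-coding genes, squares other types, the star the transcript. Coding genes run between -0.54 and 0.38, while genes of other types reach -1.20 and 1.48.

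The genes most like each transcript were sought by Pearson r of log2 CPM over the 7 libraries, which share the genotype difference, so that high values are a description of that split. *Gm44645* and *B230206I08Rik* were each other's closest gene of all tested (r = 0.996, n = 7), and both were also like the TEC gene *Gm44953* (0.991 each) and *Zfp335os* (0.983 and 0.993). Over the 11 PWS-cr series libraries the same pair gave r = -0.34, with *B230206I08Rik* near its counting limit. *Gm44907* was nearest to *Nox1* (0.989), *Gp1ba* (0.988) and *P4ha3* (0.987), and *Gm45847* to *Asic3* (0.976), *Gm48671* (0.976) and *Fech* (0.969). *4632427E13Rik* was nearest to *Gm14305* (0.988) and then to *Gm32061* (0.982) and *Gm3257* (0.979), both in the PWS interval, whose r was -0.73 and -0.00 over the 11 PWS-cr series libraries. Over 0.95 were 25 genes for *Gm44645*, 33 for *B230206I08Rik*, 64 for *Gm44907*, 29 for *4632427E13Rik* and 9 for *Gm45847*.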

How the data were processed

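The authors mapped paired, unstranded reads to mm10 with STAR, placing multimapping reads in random order, counted them with featureCounts and tested genotype with litter in DESeq2; 1 library per series was removed after clustering, and tool versions are not given in the sources used here. The deposited tables hold raw counts (used for all fits) and the authors' FPKM, which also scale by gene length; size-factor-scaled counts, TPM and the authors' fold changes, standard errors, statistics and p-values were not used. Of 22 labelled libraries, 20 have a column.

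Each series was fitted alone in edgeR 4.0.16 (R 4.3.3; TMM, glmQLFit, glmQLFTest) with genotype and litter, keeping genes that reached 10 counts in 4 libraries or more (3 in the 7-library fit), with Benjamini-Hochberg adjustment over all of them and calls at an adjusted p under 0.05; sex was added as a term for the sex test. Scripts were tested on simulated data. Library totals were 45798407 to 62103143 counts. Precision depends on the spread between pups and on counting noise, which weighs more where counts are low, as for *B230206I08Rik* in the PWS-cr series. The share of each was not tested. Pups are separate animals of few litters. Log2 CPM for likeness used a prior count of 2. Alternatives were DESeq2 1.42.0, RLE scaling, total library sizes, no filter, 10 counts in every library, no litter term, sex added, no genotype term in the sex test, the robust option and leaving out each library.

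The members and lists, and the 7-library set, were chosen with earlier results of these data known. Named genes are the 5 transcripts, their next genes, neighbours within 1 Mb called in any fit (none), the 3 most alike and label checks; other names were chosen after their values were seen. Annotation was GENCODE M21; the biotype names of the 2 tables differ, so their annotation releases may differ.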

Additional observations from a re-analysis of the deposited data

Results flagged for a closer look

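Of 25 combinations of a transcript and a group examined for a library far from the rest of its group, 1 stood out: *B230206I08Rik* at 8.65 CPM in the library labelled 1_7_IC, among the 5 libraries labelled WT in the PWS-IC series. Its gap to the next library is 0.857 of the group's range, where 0.71 is the limit for 5 samples, and chance alone puts about 1 in 20 groups past it. That library has 343 counts of *Snrpn*, as the PWS-IC libraries do.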

How the results depend on the processing

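The direction of all 5 transcripts in the PWS-IC series held under every alternative run. The transcripts were chosen on this contrast, so a direction that holds there is a description and no further support. Of 350 values of single transcripts, the 14 that changed sign were all PWS-cr values near 0. Of 190 PWS-cr alternatives with an adjusted p, 0 brought a transcript under 0.05 (edgeR or DESeq2). Leaving out 1 library at a time gave, over the 7 libraries, 1.29 to 1.60 for *Gm44645*, 1.45 to 1.85 for *Gm44907*, 1.89 to 2.13 for *B230206I08Rik*, -1.03 to -0.84 for *4632427E13Rik* and 0.96 to 1.32 for *Gm45847*. Over the 9 libraries the ranges were wider, 0.72 to 1.24 for *Gm44645*, 0.51 to 1.37 for *Gm44907* (0.51 without 1_10_IC, 1.34 without 1_3_IC, 1.37 without 1_7_IC), 0.58 to 1.56 for *B230206I08Rik* (0.58 without 4_3_IC, 1.53 without 1_7_IC, 1.56 without 1_3_IC), -0.95 to -0.68 for *4632427E13Rik* and 0.43 to 1.06 for *Gm45847* (0.43 without 1_10_IC). Adding sex gave 2.08 for *Gm44907* (1.69 without it), and over the 9 libraries 1.79 for *Gm44907* and 1.65 for *B230206I08Rik*.

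Near 0, signs turned. Without the litter term *B230206I08Rik* had 0.045 for PWS-cr genotype and *4632427E13Rik* 0.016 for sex. Leaving out single libraries gave -0.28 to 0.22 (*B230206I08Rik*; 0.22 without the WT library 1_3_Cr) and -0.23 to 0.13 (*Gm44907*; 0.13 without the PWS-cr library 3_5_Cr) for PWS-cr genotype, and -0.12 to 0.63 (*B230206I08Rik*), -0.33 to 0.018 (*Gm44907*), -0.21 to 0.0086 (*Gm44645*), -0.036 to 0.020 (*4632427E13Rik*) and -0.031 to 0.043 (*Gm45847*) for sex.

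Counts of calls over all genes depended on the setting. PWS-cr genotype gave 3, with 7 by DESeq2, 10 with no filter and 2 to 4 without 1 library. Sex gave 7, with 16 by DESeq2, 70 with no filter, 2 with 10 counts in every library, 11 without litter, and 7 to 42 without 1 library (42 without 4_3_Cr). The 9 PWS-IC libraries gave 0, with 1 by DESeq2, 471 with no filter, and 0 to 1 without 1 library (1 without 1_7_IC). The 7 libraries gave 60, with 231 by DESeq2, 978 with no filter, 31 with 10 counts in every library, 180 with sex added, and 40 to 93 without 1 library (93 without 1_5_IC). The causes were not tested. No paired analysis was possible because nothing ties a mutant pup to one WT pup; the litter term covers what they share. *B230206I08Rik* in the PWS-cr series rests on 11 to 36 counts a library, which limits its precision.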
